A study of Rattus norvegicus with 30 samples.

Results

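Trem2, Tyrobp, Clec7a, Fcer1g, Syk, Plcg2, Trem1 and Itgax were taken as the core genes of ITAM signalling in myeloid cells and described on 30 arrays of rat microglia, the resident macrophages of the brain. A gene was included where the platform's annotation gave its symbol to a probe set, and 7 of the 8 were. Itgax, the alpha chain of the integrin CD11c, had no probe set with its symbol, so it was not analysed here. Each of the 7 had 1 probe set, passed the filter on dim probe sets and exceeded the array's 30th percentile on all 30 arrays, and these 7 were among 11675 genes tested of 14506 named.

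The study followed microglial expression after a stroke and compared young with older adult brains. Male rats of 3 or 12 months underwent occlusion of the middle cerebral artery for 75 min, after which the vessel was opened again. Microglia were taken 3 or 14 days later from the ipsilateral (injured) and the contralateral hemisphere, or from sham controls of the same ages, which gave 10 groups of 3 arrays. The strain is uncertain, since the sample characteristics say Wistar Kyoto whereas the protocols name spontaneously hypertensive rats. No transgene or drug is named for any group. The sources used here do not say which hemisphere the sham samples came from or how the cells were isolated. By their codes in the labels the samples of both hemispheres come in pairs from 12 animals. The labels do not say whether the sham samples came from separate animals. The RNA is that of a whole isolate, so a smaller share of a cell type and less RNA per cell cannot be told apart.

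An ITAM is a short cytoplasmic motif with tyrosines that Src family kinases phosphorylate. The phosphorylated motif recruits the kinase Syk, which switches on phospholipase C-gamma-2 (Plcg2) and thereby calcium and diacylglycerol signals. Trem2, a receptor for lipids and lipoproteins, and Trem1, a receptor that amplifies inflammation in monocytes and neutrophils, have no motif of their own and borrow the one of the adaptor Tyrobp (DAP12). Fcer1g, the gamma chain of Fc receptors, serves other receptors in the same way, whereas Clec7a (dectin-1, a receptor for fungal beta-glucans) carries a variant motif in its own tail. In microglia, Trem2 is known as the receptor needed for the full disease-associated state, of which Clec7a and Itgax are markers.

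The 250 bases before the start sites of Trem2, Plcg2, Clec7a and Trem1 are shown because the former pair was lower and the latter pair higher in the injured hemisphere. They are RefSeq sequence of the assembly GRCr8, each read 5′ to 3′ on the gene's strand. The windows are chr9:20151780-20152029 (minus strand) for Trem2, chr19:62455946-62456195 (plus strand) for Plcg2, chr4:164599828-164600077 (minus strand) for Clec7a and chr9:20272470-20272719 (minus strand) for Trem1. Capitals mark a match, on either strand, to GAGGAA, the core bound by the myeloid factor PU.1.
Trem2: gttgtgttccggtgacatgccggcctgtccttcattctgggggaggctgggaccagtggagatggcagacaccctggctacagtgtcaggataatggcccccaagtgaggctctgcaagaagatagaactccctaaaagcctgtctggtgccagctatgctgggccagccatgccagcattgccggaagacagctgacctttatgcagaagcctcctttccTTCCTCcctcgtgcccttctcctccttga
Plcg2: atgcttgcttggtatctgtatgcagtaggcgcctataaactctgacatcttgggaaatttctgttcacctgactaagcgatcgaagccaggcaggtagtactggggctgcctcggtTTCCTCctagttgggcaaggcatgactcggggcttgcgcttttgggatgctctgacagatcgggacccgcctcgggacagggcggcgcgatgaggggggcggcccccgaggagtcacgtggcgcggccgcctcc
Clec7a: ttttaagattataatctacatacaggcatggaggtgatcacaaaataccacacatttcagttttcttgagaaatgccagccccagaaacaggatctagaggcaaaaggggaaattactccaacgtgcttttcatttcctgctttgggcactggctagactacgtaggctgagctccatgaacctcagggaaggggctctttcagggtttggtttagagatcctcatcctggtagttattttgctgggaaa
Trem1: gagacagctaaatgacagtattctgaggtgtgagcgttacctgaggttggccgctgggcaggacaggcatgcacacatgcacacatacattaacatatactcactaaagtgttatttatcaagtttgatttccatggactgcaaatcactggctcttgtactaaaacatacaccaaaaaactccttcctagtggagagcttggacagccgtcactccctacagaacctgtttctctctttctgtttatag
The Trem2 and Plcg2 windows each held 1 match, on the opposite strand, whose first base as printed lay 29 and 134 bases before the start. The Clec7a and Trem1 windows held none. Syk, which was not called between hemispheres, held 1 too, on its own strand at 62 bases. None of these 5 windows held the AP-1 motif TGANTCA, and that of Itgax held 1 (56 bases, own strand) and no GAGGAA. Of 27457 upstream windows of this length, 23.2% held the former and 6.41% the latter, and a match is a string of letters, not a shown binding site. Sequences were matched for 5 of the 7 measured genes and for Itgax, and not for Tyrobp and Fcer1g.

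Values are log2 levels, and a difference is the difference of 2 group means with limma's standard error (SE), tested with limma and adjusted by Benjamini-Hochberg over the 11675 genes. An adjusted p under 0.05 counted as a call. In the injured hemisphere Clec7a and Trem1 rose, Trem2 and Plcg2 fell on day 3, and the adaptors Tyrobp and Fcer1g and the kinase Syk were not called between hemispheres. On day 3, 4 of the 7 members were called at 3 months and 4 at 12 months, where 20.4% and 28.7% of all tested genes were. On day 14, 2 were called at each age, against 20.3% and 16.8% of genes. In the mean of the 4 hemisphere comparisons 43.3% of genes were called. Of the members, 2 were called higher, where 24.4% of genes were, and 2 lower, where 18.9% were. With arrays centred on their median, 66.9% of the called genes in that mean were higher, against 56.4% as deposited.

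**Figure D1:**
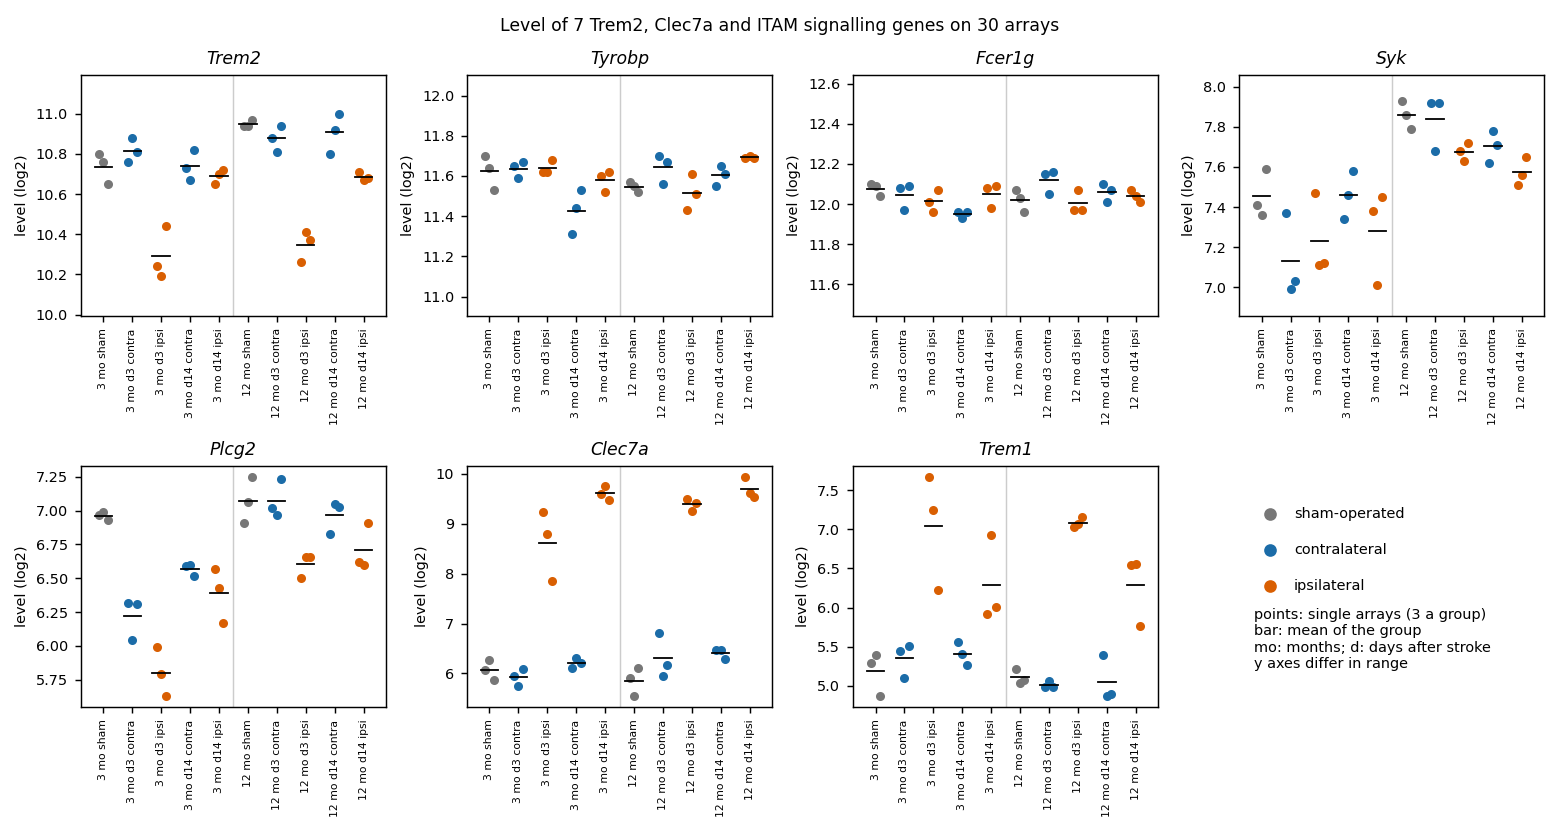
Log2 level of the 7 measured genes (y axis, with a range of its own in each panel) on 3 arrays of each of 10 groups (x axis). Points are arrays, bars are group means, and colour gives sham, contralateral or ipsilateral. Clec7a is at 7.85 or higher on all 12 ipsilateral arrays and at 6.81 or lower on all others, while Trem2 is lowest in the ipsilateral groups of day 3.

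Of the 7 genes, Clec7a gave the widest separation of the hemispheres. At 3 months its level was 6.06, 6.27 and 5.87 on the sham arrays, 5.94, 5.74 and 6.09 contralaterally and 9.23, 8.79 and 7.85 ipsilaterally on day 3. The day 14 levels were 6.11, 6.31 and 6.22 contralaterally and 9.59, 9.75 and 9.48 ipsilaterally. Every ipsilateral array was thus above every sham and contralateral array, and the lowest ipsilateral array was replicate 3 of day 3. At 12 months the sham arrays read 5.90, 5.55 and 6.11, and the day 3 arrays 6.81, 5.95 and 6.18 contralaterally and 9.49, 9.26 and 9.41 ipsilaterally. On day 14 they read 6.47, 6.48 and 6.29 contralaterally and 9.94, 9.62 and 9.53 ipsilaterally. The groups again did not overlap, and here the ipsilateral arrays of day 3 lay close together.

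The difference between hemispheres in Clec7a was 2.70 ± 0.22 (SE; 6.51-fold; adjusted p = 2.8e-10) on day 3 and 3.39 ± 0.22 (10.5-fold; adjusted p = 1e-12) on day 14 at 3 months. At 12 months it was 3.07 ± 0.22 (8.43-fold; adjusted p = 7.4e-12) and 3.28 ± 0.22 (9.74-fold; adjusted p = 2.5e-12). Clec7a ranked 17, 6, 13 and 4 from the highest among the 11675 genes in these comparisons. Within animals, the ipsilateral sample was higher in 12 of 12, by 1.77 to 3.48. Against sham, the ipsilateral difference was 2.56 and 3.54 on days 3 and 14 at 3 months and 3.54 and 3.84 at 12 months. The opposite hemisphere was not called against sham, with differences of -0.14 and 0.15 at 3 months and 0.46 and 0.56 at 12 months, although at 12 months all 3 arrays of day 14 lay above all 3 of sham.

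Trem1, which shares the adaptor Tyrobp with Trem2, rose as well, and at each age its ipsilateral group mean was highest on day 3. At 3 months its level was 5.29, 5.39 and 4.87 in sham, and on day 3 it was 5.44, 5.10 and 5.51 contralaterally and 7.67, 7.24 and 6.22 ipsilaterally. On day 14 it was 5.56, 5.40 and 5.26 contralaterally and 5.92, 6.92 and 6.01 ipsilaterally. The hemispheres did not overlap on either day, but a single array, replicate 2, stood apart in the ipsilateral group of day 14. At 12 months the sham arrays were 5.21, 5.04 and 5.07, with 4.99, 5.06 and 4.98 contralaterally and 7.03, 7.07 and 7.15 ipsilaterally on day 3. On day 14 they were 5.39, 4.87 and 4.89 contralaterally and 6.54, 6.55 and 5.76 ipsilaterally. The ipsilateral arrays of day 14 lay between those of day 3 and the contralateral ones.

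Between hemispheres Trem1 differed by 1.69 ± 0.25 (3.23-fold; adjusted p = 9.3e-06) on day 3 and by 0.88 ± 0.25 (1.84-fold; adjusted p = 0.013) on day 14 at 3 months. The call of day 14 was lost without ipsilateral replicate 2 (0.56; adjusted p = 0.14) or without contralateral replicate 3 (0.80; adjusted p = 0.052). At 12 months the differences were 2.07 ± 0.25 (4.20-fold; adjusted p = 2.4e-07) and 1.23 ± 0.25 (2.34-fold; adjusted p = 0.00068). The ipsilateral sample was higher in 12 of 12 animals, by 0.36 to 2.22. Against sham, Trem1 was higher ipsilaterally by 1.86 and 1.10 at 3 months and by 1.97 and 1.17 at 12 months, on days 3 and 14 in that order, and these 4 were called. The contralateral differences from sham were -0.10 to 0.22 and not called.

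Trem2 went the other way on day 3. At 3 months its level was 10.80, 10.76 and 10.65 in sham, and on day 3 it was 10.76, 10.88 and 10.81 contralaterally and 10.24, 10.19 and 10.44 ipsilaterally. On day 14 it was 10.73, 10.67 and 10.82 contralaterally and 10.65, 10.70 and 10.72 ipsilaterally. The hemispheres were apart on day 3 and overlapped on day 14. At 12 months sham gave 10.94, 10.94 and 10.97, and day 3 gave 10.88, 10.81 and 10.94 contralaterally and 10.26, 10.41 and 10.37 ipsilaterally. On day 14 the levels were 10.80, 10.92 and 11.00 contralaterally and 10.71, 10.67 and 10.68 ipsilaterally. Here the hemispheres did not overlap on either day.

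On day 3 Trem2 fell by 0.53 ± 0.08 on the log2 scale at both ages (1.44-fold lower; adjusted p = 7.9e-06 at 3 months and 4.7e-06 at 12 months). On day 14 the difference was -0.05 ± 0.08 (adjusted p = 0.70) at 3 months and -0.22 ± 0.08 (adjusted p = 0.052) at 12 months. With the animal as a random replicate block the latter was called (adjusted p = 0.041), and with the arrays quantile normalized again both were, at -0.28 (adjusted p = 0.0083) and -0.33 (adjusted p = 0.002). Leaving out contralateral replicate 1 of day 14 at 12 months gave -0.27 (adjusted p = 0.03). The ipsilateral sample was higher in 1 of 12 animals, with differences of -0.69 to 0.03. Against sham, Trem2 fell ipsilaterally by 0.44 (adjusted p = 1.8e-05) and 0.60 (adjusted p = 2.9e-07) on day 3 at 3 and 12 months and by 0.27 (adjusted p = 0.014) on day 14 at 12 months. It was not called ipsilaterally on day 14 at 3 months (-0.05) nor in any contralateral group (-0.08 to 0.08), although quantile normalization raised the contralateral values at 3 months to 0.25 (adjusted p = 0.012) on day 3 and 0.21 (adjusted p = 0.04) on day 14.

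The adaptor Tyrobp stayed within 11.31 to 11.70 and Fcer1g within 11.93 to 12.16 over all 30 arrays. Their mean levels exceeded those of 99.6% and 99.8% of the tested genes. Tyrobp differed between hemispheres by 0.00, 0.15, -0.13 and 0.09 (3 months days 3 and 14, then 12 months), with 95% intervals that together ran from -0.28 to 0.30, and was higher ipsilaterally in 8 of 12 animals. Fcer1g differed by -0.03, 0.10, -0.12 and -0.02, with intervals from -0.26 to 0.24, and was higher in 5 of 12. The hemispheres overlapped in 3 of 4 comparisons for each gene. With the arrays quantile normalized again, the mean of the 4 comparisons was called lower for both, at -0.13 (adjusted p = 0.0017) for Tyrobp, where the deposited values gave 0.03, and at -0.14 (adjusted p = 0.00017) for Fcer1g, where they gave -0.02. On day 3 at 12 months that scaling gave calls of -0.30 (adjusted p = 0.00073) for Tyrobp and -0.24 (adjusted p = 0.0021) for Fcer1g between hemispheres, and of -0.28 (adjusted p = 0.0013) and -0.19 (adjusted p = 0.0094) against sham. In the contralateral hemisphere of day 14 at 3 months, Tyrobp fell by 0.20 against sham (adjusted p = 0.036). That call was lost without sham replicate 1 (adjusted p = 0.15) or 2 (0.088) or contralateral replicate 1 (0.19) or 2 (0.06), and the value was 0.01 after quantile normalization.

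Syk, the kinase recruited by the adaptors and by Clec7a, was not called between hemispheres. At 3 months its level was 7.41, 7.36 and 7.59 in sham, 7.37, 6.99 and 7.03 contralaterally and 7.47, 7.11 and 7.12 ipsilaterally on day 3. On day 14 it was 7.34, 7.46 and 7.58 contralaterally and 7.38, 7.01 and 7.45 ipsilaterally. These groups overlapped throughout. At 12 months it was 7.93, 7.86 and 7.79 in sham, 7.92, 7.68 and 7.92 contralaterally and 7.68, 7.63 and 7.72 ipsilaterally on day 3. The day 14 levels were 7.62, 7.78 and 7.71 contralaterally and 7.51, 7.56 and 7.65 ipsilaterally. The 12-month levels ran from 7.51 to 7.93 and the 3-month levels from 6.99 to 7.59. The differences between hemispheres were 0.10, -0.18, -0.16 and -0.13 (SE 0.12), with intervals from -0.42 to 0.34. Their mean was -0.09 (adjusted p = 0.19), and quantile normalization made it -0.15 (adjusted p = 0.027).

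Plcg2, the phospholipase downstream of Syk, was lower after injury. At 3 months its level was 6.97, 6.99 and 6.93 in sham, 6.32, 6.04 and 6.31 contralaterally and 5.99, 5.79 and 5.63 ipsilaterally on day 3. On day 14 it was 6.59, 6.60 and 6.52 contralaterally and 6.57, 6.43 and 6.17 ipsilaterally. Both hemispheres of both days lay below sham without overlap at this age. At 12 months it was 6.91, 7.06 and 7.25 in sham, 7.02, 6.97 and 7.23 contralaterally and 6.50, 6.66 and 6.66 ipsilaterally on day 3. The day 14 levels were 6.83, 7.05 and 7.03 contralaterally and 6.62, 6.60 and 6.91 ipsilaterally. Here the contralateral arrays overlapped with sham, and the ipsilateral arrays lay below the lowest sham array, although the closest pair both rounded to 6.91.

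Between hemispheres Plcg2 fell on day 3 by 0.42 ± 0.11 (1.34-fold lower; adjusted p = 0.0076) at 3 months and by 0.47 ± 0.11 (1.39-fold lower; adjusted p = 0.0021) at 12 months. The call at 3 months was lost without ipsilateral replicate 3 (-0.33; adjusted p = 0.062). On day 14 the differences were -0.18 (adjusted p = 0.29) and -0.26 (adjusted p = 0.13), the latter called without ipsilateral replicate 3 (-0.36; adjusted p = 0.048). The ipsilateral sample was lower in all 12 animals, with differences of -0.68 to -0.02. Over the 4 comparisons the mean was -0.33 ± 0.06 (adjusted p = 1.7e-05), a size like that of Trem2 (-0.33 ± 0.04; adjusted p = 3.2e-08).

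**Figure D2:**
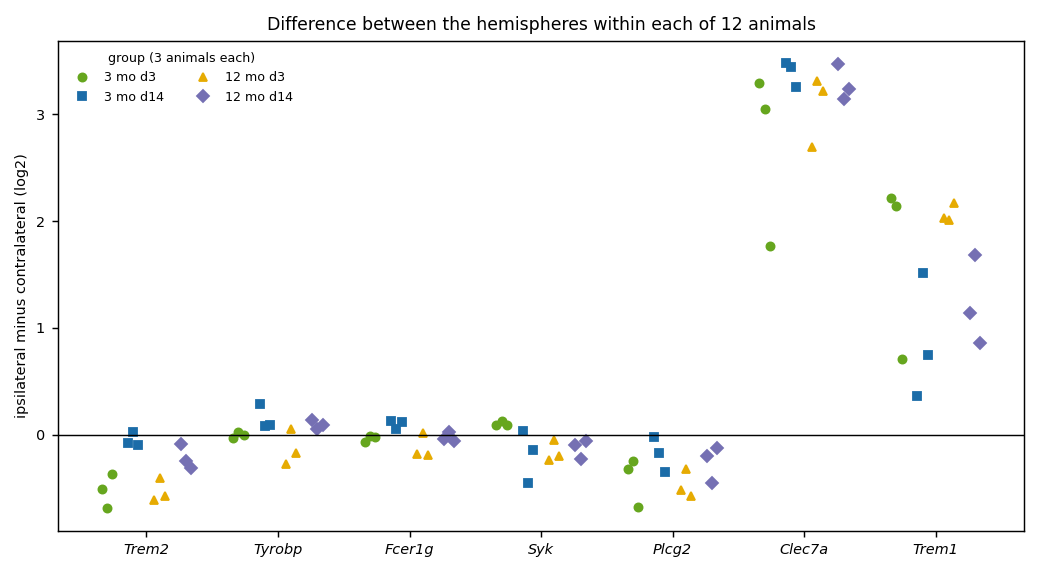
Ipsilateral minus contralateral log2 level (y axis) within each of 12 animals for the 7 genes (x axis), with 3 animals in each of 4 groups of age and day. Clec7a and Trem1 are above 0 in all 12 animals and Plcg2 below 0 in all 12, whereas Tyrobp, Fcer1g and Syk fall on both sides of 0.

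Against sham the ipsilateral hemisphere gave 4, 3, 4 and 4 called members (3 months days 3 and 14, then 12 months), where 56.8%, 34.4%, 37.1% and 20% of genes were called. Plcg2 fell by 1.16 (2.23-fold lower; adjusted p = 1e-09) and 0.57 (adjusted p = 0.00022) at 3 months and by 0.47 (adjusted p = 0.0014) and 0.37 (adjusted p = 0.021) at 12 months. The last of these was lost without sham replicate 2 (adjusted p = 0.05) or 3 (0.13) or ipsilateral replicate 1 (0.098) or 2 (0.1). Contralaterally, 2 members were called on each day at 3 months, where 51.6% and 38.7% of genes were, and none at 12 months, where 1.28% and 0.00857% were. Plcg2 was 1 of them on each day, lower by 1.67-fold (-0.74; adjusted p = 4.6e-06) on day 3 and by 1.31-fold (-0.39; adjusted p = 0.0078) on day 14. After quantile normalization the value of day 14 was -0.24 (adjusted p = 0.11). Syk was lower on day 3 (-0.33; adjusted p = 0.019), a call that was lost without sham replicate 3 (0.097) or contralateral replicate 2 (0.11) or 3 (0.081), and the value was 0.01 after quantile normalization. Ipsilaterally Syk was not called against sham, with -0.22 and -0.18 at 3 months and -0.19 and -0.29 at 12 months. At 3 months the value of day 3 was called without ipsilateral replicate 1 (-0.34; adjusted p = 0.019) and with arrays centred on their median (-0.29; adjusted p = 0.046). At 12 months both days were called after quantile normalization (-0.30 and -0.34; adjusted p = 0.027 and 0.021), and day 14 also with only the compared groups in the fit (adjusted p = 0.031). Fcer1g on day 14 at 3 months, contralaterally, was -0.13 (adjusted p = 0.14) and was called with arrays centred on their median (-0.21; adjusted p = 0.024).

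All these comparisons with sham share the sham arrays of their age, and the ipsilateral ones share arrays with the comparisons of the hemispheres. The sample codes also carry a number, which the sources used here do not explain. At 3 months that number differs between sham, day 3 and day 14, so the group and the number cannot be told apart in comparisons with sham or between days. It also differs between the ages, in sham as in the stroke groups. The hemisphere comparisons and all comparisons within 12 months lie within a single number.

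**Figure D3:**
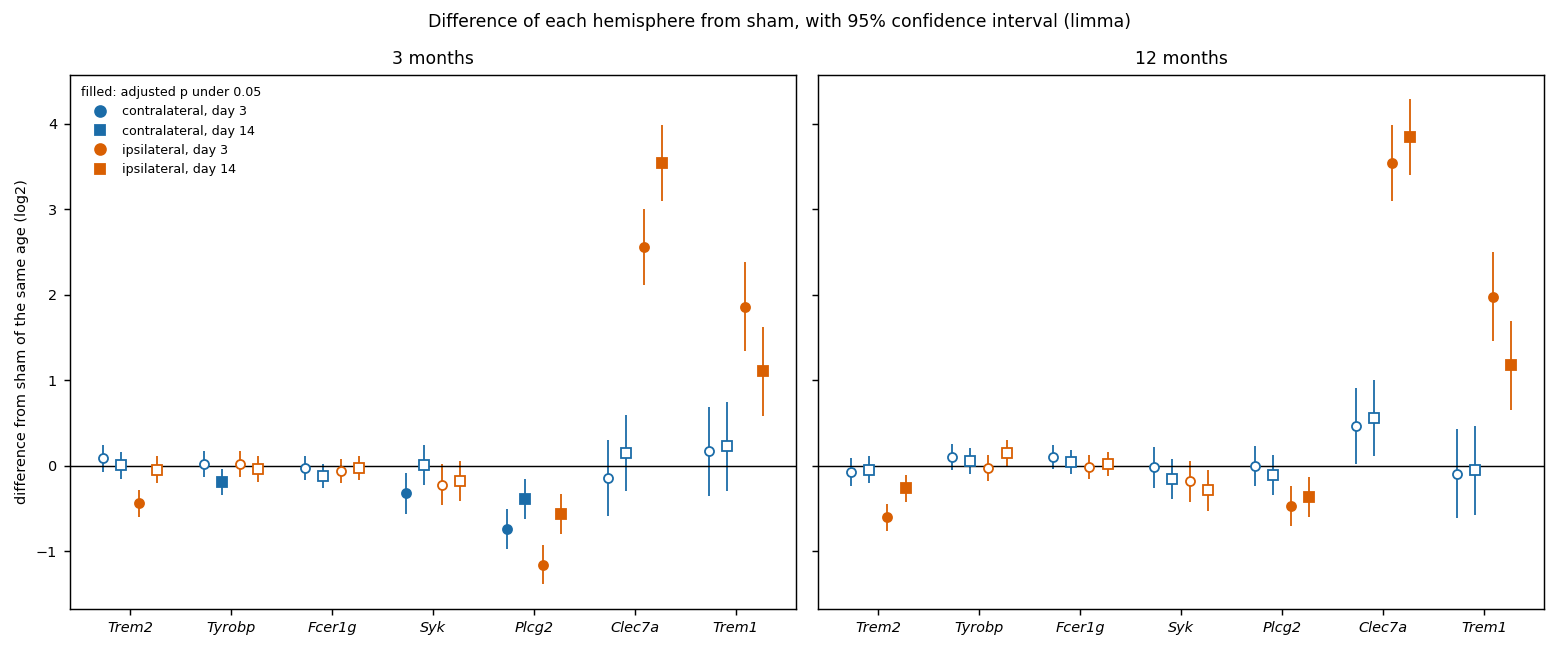
Difference of the contralateral (blue) and ipsilateral (orange) hemisphere from sham of the same age (y axis, log2) for the 7 genes (x axis), at 3 months (left) and 12 months (right). Circles are day 3, squares day 14, bars the 95% confidence interval from limma, and filled symbols have an adjusted p under 0.05. Plcg2 is below sham in both hemispheres at 3 months and in the ipsilateral hemisphere only at 12 months, a contrast between ages that was not tested for the comparisons with sham.

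Between day 3 and day 14 Trem1 fell in the injured hemisphere at both ages, Trem2 rose at both, and Clec7a rose at 3 months. In the ipsilateral hemisphere 4 members were called at 3 months, where 29.6% of genes were, and 2 at 12 months, where 20.6% were. Clec7a rose further by 0.98 ± 0.22 (1.98-fold; adjusted p = 0.00097) at 3 months, while its change of 0.31 at 12 months was not called (adjusted p = 0.36). Trem1 fell by 0.76 ± 0.25 (1.69-fold; adjusted p = 0.024) at 3 months and by 0.80 ± 0.25 (1.74-fold; adjusted p = 0.023) at 12 months. At 3 months that call was lost without replicate 1 (adjusted p = 0.2) or 2 (0.1) of day 3 or replicate 1 (0.15) or 3 (0.11) of day 14, and without replicate 1 of day 3 the fall was -0.45. With all arrays it was also lost with only the compared groups (0.11) or 1 age (0.055) in the fit and with a trended robust variance (0.05). At 12 months it was lost without replicate 3 of day 3 (0.075) or of day 14 (-0.54; 0.18), after quantile normalization (-0.69; 0.076) and with a trended robust variance (0.051). Tyrobp (0.18) was not called ipsilaterally at 12 months, but was after quantile normalization (0.23; adjusted p = 0.012) and with a trended robust variance (0.032). Trem2 rose again by 0.39 ± 0.08 (adjusted p = 3e-04) at 3 months and by 0.34 ± 0.08 (adjusted p = 0.0019) at 12 months, without overlap of the days. Plcg2 rose by 0.59 ± 0.11 (adjusted p = 0.00024) at 3 months and was not called at 12 months (0.11; adjusted p = 0.59).

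In the contralateral hemisphere 1 member was called between days at 3 months, where 10.1% of genes were, and none at 12 months, where 1.06% were. This was Plcg2 (0.35; adjusted p = 0.049), which missed the threshold without replicate 2 (0.25) or 3 (0.062) of day 3 or without any of the 3 replicates of day 14 (0.078 to 0.11). Syk (0.33; adjusted p = 0.063) passed it without replicate 1 of day 3 (0.45; adjusted p = 0.017), and Tyrobp (-0.21; adjusted p = 0.067) without replicate 3 of day 14 (-0.27; adjusted p = 0.047). The change of the hemisphere effect itself (ipsilateral minus contralateral, day 14 minus day 3) was called at 3 months for 1 member, where 3.81% of genes were called, and at 12 months for none, where 5.34% were. It was Trem2, at 0.47 ± 0.11 (adjusted p = 0.011), but the adjusted p was 0.053 with the animal as a fixed replicate block and 0.061 after quantile normalization. At 12 months the value for Trem2 was 0.31 ± 0.11 (adjusted p = 0.11), and it was called after quantile normalization (0.42; adjusted p = 0.017). For Trem1 it was -0.82 and -0.84 (adjusted p = 0.22 and 0.21), called at 3 months without ipsilateral replicate 3 of day 3 (-1.23; adjusted p = 0.016). At 12 months it was called with only the arrays of 1 age in the fit (adjusted p = 0.034). For Clec7a it was 0.69 and 0.21 (adjusted p = 0.23 and 0.82), called at 3 months without ipsilateral replicate 1 of day 3 (0.99; adjusted p = 0.044).

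Age was compared in sham and in the size of the hemisphere effect. In sham, 1 member was called, where 13% of genes were: Syk was higher at 12 months by 0.41 ± 0.12 (1.33-fold; adjusted p = 0.018), and the 3 arrays of each age did not overlap. The sham samples of the ages carry different code numbers, so age and number cannot be told apart here. This call was lost without replicate 1 or 2 of either age (adjusted p = 0.055 to 0.085). Trem2 was higher by 0.22 ± 0.08 without being called (adjusted p = 0.066), also without overlap, and was called after quantile normalization (0.28; adjusted p = 0.012). No member was called for a difference of the hemisphere effect between ages, where 1.58% of genes were called on day 3 and 0.00857% on day 14. The limma differences ran from -0.27 for Syk to 0.38 for Trem1 on day 3 and from -0.17 for Trem2 to 0.35 for Trem1 on day 14, with adjusted p of 0.52 or more. The 95% intervals of the hemisphere effects in Clec7a overlapped between ages on both days, from 2.26 to 3.15 and 2.63 to 3.52 on day 3 and from 2.95 to 3.84 and 2.84 to 3.73 on day 14.

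Ordered by group mean, Clec7a went from 5.85 ± 0.29 (SD, n = 3) in 12-month sham to 9.70 ± 0.22 in the ipsilateral hemisphere of day 14 at 12 months. The 6 sham and contralateral groups had means of 5.85 to 6.41, with steps smaller than the larger SD of each pair of neighbours. A gap of 2.21 followed, and then the ipsilateral groups came in the order 3 months day 3, 12 months day 3, 3 months day 14 and 12 months day 14, of which the last pair did not differ beyond their spread and the middle pair had overlapping arrays. Trem1 went from 5.01 ± 0.04 to 7.08 ± 0.06, with a gap of 0.87 below the ipsilateral groups, and its ipsilateral groups of day 14 (6.28 ± 0.45 and 6.28 ± 0.55) came before those of day 3 (7.04 ± 0.74 and 7.08 ± 0.06). Trem2 ran in the reverse sense, from 10.29 ± 0.13 and 10.35 ± 0.08 in the ipsilateral groups of day 3, which overlapped, to 10.95 ± 0.02 in 12-month sham. Its 4 ipsilateral groups were its 4 lowest, but those of day 14 (both 10.69) overlapped with 3-month sham (10.74 ± 0.08). Plcg2 ran from 5.80 ± 0.18 in the ipsilateral hemisphere of day 3 at 3 months to 7.08 ± 0.17 in 12-month sham, and the next 3 places from the bottom were the other stroke groups of 3 months. Syk placed the 5 groups of 3 months below the 5 of 12 months, with neighbouring arrays that overlapped at every step.

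The genes whose values over the 30 arrays were most like those of each member were named by Pearson's r, as a description of points that share animals, age and injury. For Clec7a these were Lgals3 (0.976), which encodes galectin-3, Glipr1 (0.974) and Hopx (0.971). For Trem1 they were Cd44 (0.956), the hyaluronan receptor, Fabp4 (0.956), a fatty acid binding protein of macrophages, and Iqgap1 (0.952). For Trem2 they were Sparc (0.926), a secreted matrix protein, Spint1 (0.887) and Mlxipl (0.886). For Plcg2 they were Tnks2 (0.962), Stk3 (0.961) and Stag1 (0.958), and for Syk Nek9 (0.875), Alg12 (0.874) and Prex1 (0.872). For Tyrobp they were the other adaptor Fcer1g (0.648), then Rps23 (0.633) and Ftl1 (0.621). For deviations from the group means Rps23 was closer to Tyrobp (0.641) than Fcer1g was (0.554). For Fcer1g they were Blnk (0.664), Fxyd5 (0.656) and Tyrobp (0.648). Among the members, Clec7a and Trem1 correlated at 0.844 and Trem2 and Trem1 at -0.877, and for deviations from the group means these were 0.669 and -0.4.

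Markers of microglia and of other cells were described beside the members. The mean of 9 microglial markers, of 10 listed, was 9.85 to 10.28 on the sham and contralateral arrays and 9.22 to 9.69 on the ipsilateral ones. Tmem119, a gene specific to microglia among brain macrophages, was lower ipsilaterally by 1.36 to 1.52 and P2ry12, a purine receptor of resting microglia, by 0.47 to 0.79. The mean of 12 monocyte and macrophage markers, of 14 listed, was 5.45 to 5.72 on the sham and contralateral arrays, 6.46 to 7.81 on the ipsilateral arrays of day 3 and 5.72 to 6.15 on those of day 14. Of these markers 9 to 11 lay above the 30th percentile of the array in sham and contralaterally, 11 or 12 ipsilaterally on day 3 and 10 on day 14, when Vcan and F13a1 were at or below it in both ipsilateral groups. Both genes were so too in 3-month sham and in both contralateral groups of day 14. Vcan alone was so in 12-month sham and on day 3 in every group but the ipsilateral one of 3 months. Cd44 is also on this list, as is Ccr2. At 3 months Ccr2 was 5.64 ± 0.89 (SD) and 4.93 ± 0.04 ipsilaterally on days 3 and 14, and 4.98 ± 0.02 and 5.09 ± 0.35 contralaterally. At 12 months it was 5.06 ± 0.09 and 4.81 ± 0.09 ipsilaterally, and 5.02 ± 0.18 and 5.16 ± 0.13 contralaterally. The 6 markers of border-associated macrophages, of 8 listed, had a mean of 5.76 to 6.89 on the sham and contralateral arrays. On the ipsilateral arrays it was 7.31 to 8.17 on day 3 and 5.80 to 7.05 on day 14. The 13 neutrophil markers had 5.32 to 6.50, 5.63 to 6.63 and 5.22 to 5.68 in the same order. Over all arrays the means were 4.86 to 5.48 for 8 markers of dendritic cells, of 10 listed, 4.38 to 4.78 for 10 of T and NK cells and 4.49 to 5.36 for 2 of B cells, of 4 listed.

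In the ipsilateral hemisphere of day 3 at 3 months, replicates 1, 2 and 3 had monocyte marker means of 7.81, 7.06 and 6.46. Trem1 stood at 7.67, 7.24 and 6.22 and Clec7a at 9.23, 8.79 and 7.85 on the same arrays, so that the 3 measures had the same order. The neutrophil marker means, at 6.63, 6.57 and 5.99, had this order too. Those of microglia, at 9.24, 9.28 and 9.48, had the reverse, and those of border-associated macrophages, at 8.17, 7.75 and 7.80, neither. On day 3 at 12 months the monocyte marker means were 6.93, 6.95 and 7.19. There Trem1, at 7.03, 7.07 and 7.15, had the order of the markers, whereas Clec7a, at 9.49, 9.26 and 9.41, did not. On day 14 the ipsilateral monocyte marker means were 5.98, 6.15 and 5.98 at 3 months, where the contralateral ones were 5.55 to 5.58, and 6.09, 5.72 and 5.76 at 12 months, where they were 5.55 to 5.66. They thus lay below those of day 3 and above every contralateral array of their group. Clec7a read 9.48 to 9.94 on these ipsilateral arrays and Trem1 5.76 to 6.92. At 3 months replicate 2 was the highest of them in all 3 measures. At 12 months neither gene had the order of the markers, with Clec7a at 9.94, 9.62 and 9.53 and Trem1 at 6.54, 6.55 and 5.76. The part of these markers in the changes of the members was not tested.

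**Figure D4:**
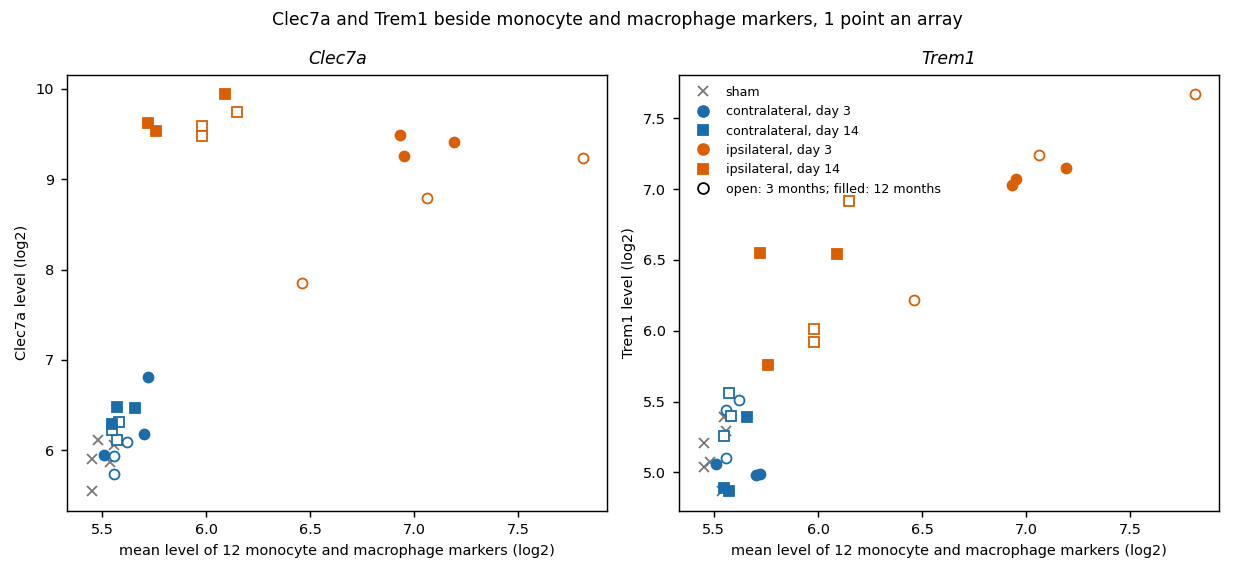
Level of Clec7a (left) and Trem1 (right, y axes, log2) against the mean level of 12 monocyte and macrophage markers (x axis, log2), with 1 point for each of 30 arrays. Orange is ipsilateral, blue contralateral and grey sham, and open symbols are 3 months. On ipsilateral arrays of day 14 (squares) Clec7a is at 9.48 to 9.94 at marker means of 5.72 to 6.15, whereas Trem1 lies between 5.76 and 6.92.

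Among the ligands and the sheddase of Trem2, 4 of 8 listed genes were measured, of which 2, 1, 2 and 1 were called higher (3 months days 3 and 14, then 12 months) and 0, 1, 0 and 0 lower. Of all tested genes 11.5%, 13.2%, 18.7% and 10.9% were called higher and 8.95%, 7.09%, 10% and 5.94% lower. The calls of day 3 were not stable, since they fell to 0 without contralateral replicate 2 at 3 months, without replicate 3 of either hemisphere at 12 months, with only the compared groups in the fit at 3 months and with the animal as a fixed replicate block at 12 months. Clu (clusterin), another lipoprotein that binds Trem2, was called higher on day 3 at both ages (0.30 and 0.29; adjusted p = 0.015 and 0.014) and lower on day 14 at 3 months (-0.28; adjusted p = 0.023). On day 3 at 3 months it was lost without contralateral replicate 2 (0.062) or ipsilateral replicate 2 (0.076) or 3 (0.086), with only the compared groups (0.11) and with the animal as a fixed replicate block (0.059). At 12 months it was lost without replicate 3 of either hemisphere (contralateral 0.075, ipsilateral 0.12) and with that block (0.051). The lower call was lost with arrays centred on their median (0.064), with that block (0.073), with 1 age (0.052) or only the compared groups (0.11), and without contralateral replicate 1 (0.088) or 3 (0.066) or ipsilateral replicate 1 (0.054) or 2 (0.072). Apoe, a lipoprotein that binds Trem2, was higher ipsilaterally on day 14 at 3 months (0.71 ± 0.09; adjusted p = 6.1e-07) and at 12 months (0.64 ± 0.09; adjusted p = 3.1e-06). On day 3 it was called at 3 months (0.29; adjusted p = 0.016) and not at 12 months (-0.05; adjusted p = 0.7). The former call was lost after quantile normalization (0.17; adjusted p = 0.2) and without ipsilateral replicate 1 (0.20; adjusted p = 0.16) or contralateral replicate 1 (0.056) or 2 (0.054). Adam17, a protease that sheds receptors from the surface, was higher on day 3 at 12 months (0.29; adjusted p = 0.03), which was lost with the animal as a fixed replicate block (adjusted p = 0.06), after quantile normalization (0.13) and without ipsilateral replicate 1 (0.078) or 3 (0.13) or contralateral replicate 2 (0.14) or 3 (0.055).

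Other activating receptors of the pathway, of which 7 of 17 listed were measured, had 4, 3, 3 and 2 called higher in the injured hemisphere and 0, 0, 0 and 1 lower, in the same order of age and day. On day 3 at 12 months the 3 became 1 without contralateral replicate 3, where Fcgr1a (adjusted p = 0.055), a high-affinity Fc receptor, and Clec4d (0.051) were lost. The share of all tested genes called higher was 11.5%, 13.2%, 18.7% and 10.9%, and lower 8.95%, 7.09%, 10% and 5.94%. With arrays centred on their median, the share of called genes that were higher was 77.5% on day 14 at 3 months and 75.2% on day 3 at 12 months, against 65% and 65.1% as deposited. Their median difference was 0.41, 0.07, 0.23 and 0.02, where the median of all genes was -0.01 in each. Clec4d (2.14 ± 0.31; adjusted p = 7e-06) and Clec4e (1.998 ± 0.27; adjusted p = 2.2e-06), lectin receptors that signal through Fcer1g, rose on day 3 at 3 months. On day 14 the receptors that rose at 3 months were Clec5a, which signals through Tyrobp (1.28 ± 0.16; adjusted p = 8.1e-07), and the complement receptor chains Itgam (0.60 ± 0.08) and Itgb2 (0.59 ± 0.09), and the latter pair rose at 12 months too (0.44 and 0.54). At 3 months the hemisphere effect itself changed between the days, by -2.41 for Clec4d (adjusted p = 0.0017), -1.93 for Clec4e (0.0033), 0.87 for Clec5a (0.027) and 0.67 for Itgb2 (0.0023). With only the compared groups in the fit the values for Clec4e and Clec5a were not called (adjusted p = 0.065 and 0.087). That of Clec5a was also lost without replicate 1 (0.059) or 2 (0.051) of day 3 or 1 (0.062) or 3 (0.085) of day 14 contralaterally, and without replicate 2 (0.093) of day 3 or 1 (0.071) of day 14 ipsilaterally. Fcgr3a, an activating Fc receptor, was higher on day 3 (0.56 and 1.02) and lower on day 14 at 12 months (-0.39; adjusted p = 0.032). That last call was lost with arrays centred on their median (-0.36; adjusted p = 0.058), without any of the 3 contralateral replicates (0.051 to 0.11) and without ipsilateral replicate 2 (-0.28; adjusted p = 0.2). The hemisphere effect on Fcgr3a changed between the days by -0.74 at 3 months (adjusted p = 0.016) and by -1.41 at 12 months (adjusted p = 4.1e-06). The former was lost with only the arrays of 1 age (0.051) or only the compared groups (0.094), and without contralateral replicate 1 of day 3 (0.053) or replicate 3 of day 14 in either hemisphere (0.053 and 0.052).

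Src family kinases and their inhibitor Csk gave 6 measured genes of 7 listed, with 0, 1, 0 and 1 called higher and 2, 2, 1 and 3 lower, and medians of -0.09, -0.13, -0.07 and -0.34. Of all tested genes 11.5%, 13.2%, 18.7% and 10.9% were called higher and 8.95%, 7.09%, 10% and 5.94% lower. On day 3 at 3 months 1 higher and 3 lower were called after quantile normalization, with a stricter dim filter or with the animal as a random replicate block, and 2 higher and 3 lower without ipsilateral replicate 3. On day 3 at 12 months quantile normalization called 2 lower. As deposited, the gene called higher was Fyn, on day 14 at both ages (1.84 ± 0.18; adjusted p = 1.3e-08 and 1.79 ± 0.18; adjusted p = 2e-08). Yes1 fell on day 3 (-0.83 and -0.68), and Lyn, a kinase that phosphorylates ITAMs, fell on day 14 (-0.35 and -0.45) together with Csk (-0.42 and -0.48).

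On a list of signalling downstream of Syk, 25 of 29 genes were measured, with medians of -0.02, 0.09, 0.05 and 0.07. Called higher were 2, 7, 4 and 4 of them, where 11.5%, 13.2%, 18.7% and 10.9% of all tested genes were. Called lower were 5, 3, 7 and 4, where 8.95%, 7.09%, 10% and 5.94% of genes were. On day 3 at 12 months the counts of the list became 3 higher and 4 lower without replicate 1 of either hemisphere, and 2 higher and 3 lower without ipsilateral replicate 3. On day 14 at 3 months they became 3 and 3 without ipsilateral replicate 1. Hcst (DAP10), counted on this list although it is an adaptor (the other one of Trem2), was higher in all 4 comparisons (0.57, 0.80, 0.58 and 0.79, SE 0.11). Rasgrp3, an activator of Ras that responds to the diacylglycerol made by Plcg2, was lower in all 4 (-1.15, -0.60, -0.85 and -0.48, SE 0.08), as was the calcium-dependent transcription factor Nfatc2 (-0.63, -0.90, -0.50 and -0.71, SE 0.14). The call of Nfatc2 on day 3 at 12 months was lost without contralateral replicate 2 (adjusted p = 0.071) or ipsilateral replicate 3 (0.07). Rac2, a GTPase of blood cells, was higher on day 3 (0.63 and 0.78). Against sham at 3 months, 20 of the 25 were called lower ipsilaterally on day 3 and 19 contralaterally, where 35.9% and 37.2% of all genes were, and 3 were called higher in each, where 20.9% and 14.4% were. After quantile normalization these counts became 12 lower and 4 higher ipsilaterally and 7 lower and 4 higher contralaterally. Of all genes, 3276 were then called lower ipsilaterally (4191 as deposited) and 2705 contralaterally (4343). Called higher were 2730 (2435) and 1834 (1676). The share of all called genes that were higher contralaterally was then 40.4%, against 27.8% as deposited.

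Inhibitory receptors and phosphatases gave 15 tested genes of 21 listed, with 5, 5, 7 and 4 called higher and 2, 3, 4 and 4 lower, and medians of 0.08, 0.20, 0.06 and -0.02. The shares of all tested genes were 11.5%, 13.2%, 18.7% and 10.9% higher and 8.95%, 7.09%, 10% and 5.94% lower. On day 14 at 3 months 3 higher and 2 lower were called without contralateral replicate 1. Clec12a, an inhibitory lectin receptor, was higher in all 4 comparisons (1.32, 1.20, 1.53 and 0.96, SE 0.10). Inpp5d (SHIP1), a lipid phosphatase that limits Trem2 signalling, was lower in all 4 (-0.57, -0.48, -0.50 and -0.53, SE 0.08). Lilrb4, a receptor with inhibitory motifs, was higher on day 3 (2.99 ± 0.44 and 2.34 ± 0.44), and so was Cblb, a ubiquitin ligase that restrains Syk (1.03 ± 0.11 and 1.25 ± 0.11).

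In the disease-associated programme that depends on Trem2 in mouse models, all 13 listed genes were tested, and 8, 8, 10 and 8 were called higher and 2, 0, 2 and 0 lower, with medians of 0.87, 0.98, 0.59 and 0.94. This list did not include Clec7a, Itgax or any other member. The shares of all tested genes were 11.5%, 13.2%, 18.7% and 10.9% higher and 8.95%, 7.09%, 10% and 5.94% lower. Spp1 (osteopontin) rose by 4.76 ± 0.28 and 5.31 ± 0.28 on day 3, and by 3.57 ± 0.28 on day 14 at 3 months. Gpnmb, a lysosomal membrane protein, rose by 3.66, 3.40, 3.54 and 3.08 (SE 0.21), and Lgals3 by 3.83, 3.71, 3.69 and 3.18 (SE 0.23). Axl, a receptor for dying cells, rose by 3.58 ± 0.18 on day 14 at 12 months, and its hemisphere effect grew between the days by 1.57 ± 0.26 at 3 months (adjusted p = 0.00036) and by 2.30 ± 0.26 at 12 months (adjusted p = 5.2e-07). That of Spp1 shrank at 12 months (-2.42 ± 0.39; adjusted p = 0.00015). The genes called lower were Timp2 (-0.29 on day 3 at both ages) and the protease Ctsl (-0.24 and -0.22). At 3 months Timp2 was lost without replicate 1 of either hemisphere (adjusted p = 0.057 and 0.065) and Ctsl without contralateral replicate 1 (0.084) or 2 (0.059) or ipsilateral replicate 1 (0.15) or 2 (0.064). At 12 months Ctsl was lost without any 1 of the 6 arrays (0.058 to 0.15), and with the animal as a fixed replicate block its adjusted p was 0.067 at 3 months and 0.085 at 12 months. Trem2 itself was lower or not called in the same comparisons.

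**Figure D5:**
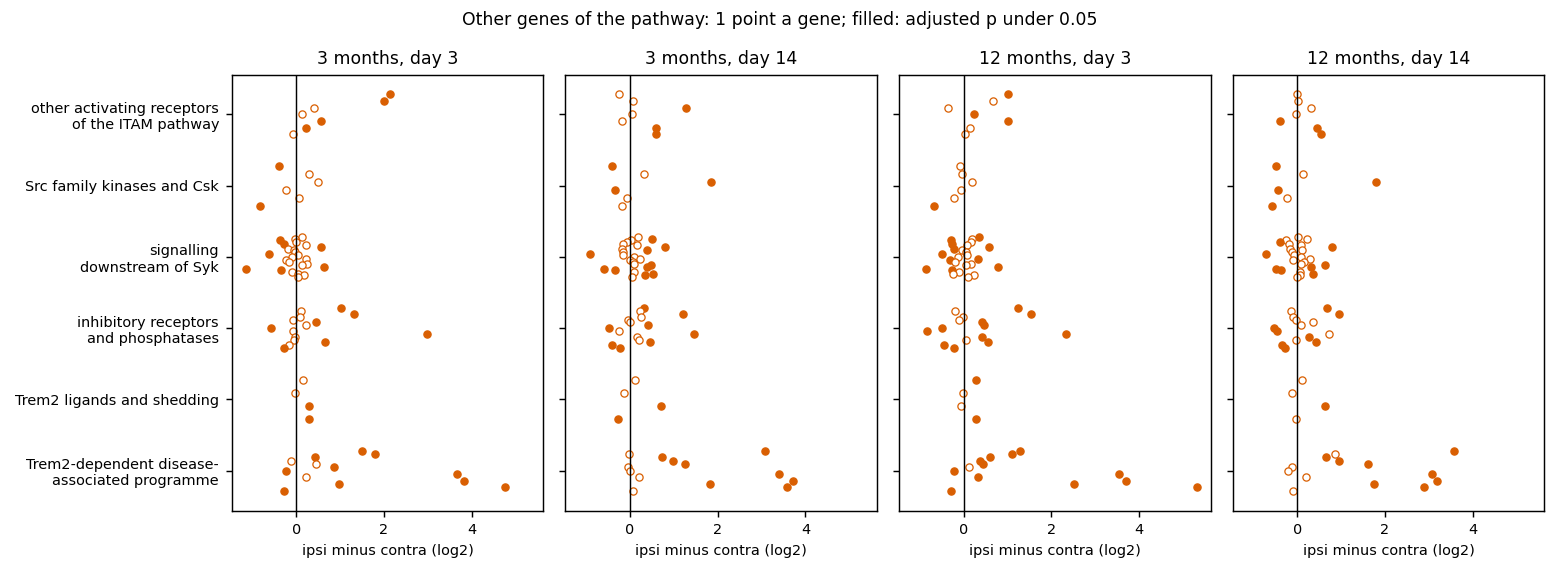
Ipsilateral minus contralateral log2 difference (x axis) of each measured gene of 6 lists of the pathway (y axis) in 4 comparisons of age and day. Each point is a gene, filled where the adjusted p was under 0.05, and points are spread vertically for legibility only. The programme that depends on Trem2 in mouse models reaches 5.31 on day 3 at 12 months. The genes listed as downstream of Syk, with the adaptor Hcst among them, lie between -1.15 and 0.80.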

How the data were processed

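Expression was measured on Affymetrix Rat Gene 1.0 ST arrays, whose number limits the precision. The values are log2 levels that the authors deposited after RMA (a method that combines background correction, quantile normalization and a summary over probes) in Affymetrix Expression Console, per the submitters' processing notes; the versions are not given in the sources used here. Of 29214 probe sets, 15310 had 1 gene symbol, 323 several and 13581 were unnamed in the platform annotation used. Array medians ran from 5.06 to 5.24. The SD over probe sets was 1.79 to 1.93 on the 3-month stroke arrays and 1.94 to 2.05 on the others, which the quantile alternative makes equal. Arrays of a group correlated at 0.9865 to 0.9953, and none were identical.

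A gene was represented by its probe set with the highest mean and tested where that exceeded the array's 30th percentile on at least 3 arrays. Group means over all 30 arrays were fitted with limma 3.58.1 in R 4.3.3, with Benjamini-Hochberg adjustment over 11675 genes, after the fit was tested on simulated data. Same-numbered ipsilateral and contralateral samples share an animal per the labels' codes; their deviations from group means correlated at -0.079 to 0.21 (duplicateCorrelation 0.072), and the main fit has no block. Where separate animals are not stated (sham), p-values measure the spread between samples, which may be technical. The members and lists were chosen with earlier results of these data known. Named were the members, up to 3 called genes per list, direction and comparison with the largest change, the 3 genes most correlated with each member, and defining markers; other genes named (Vcan and F13a1 among the markers) were chosen after their values were seen. Alternatives were no or a stricter dim filter, quantile or median scaling, fewer arrays in the fit, the mean of probe sets, the animal as a block, another variance model and leaving out each array.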

Additional observations from a re-analysis of the deposited data

Results flagged for a closer look

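The hemisphere effect on Trem2 (ipsilateral minus contralateral) differed between day 14 and day 3 at 3 months by 0.47 on the log2 scale (limma, adjusted p = 0.011), from -0.53 on day 3 to -0.05 on day 14. It lost the call in 4 alternatives, given with the dependence on processing.

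Fcer1g was lower in the injured hemisphere of all 3 animals of day 3 and higher in all 3 of day 14 at 3 months. The differences were small, at -0.07, -0.01 and -0.02 on day 3 and 0.13, 0.05 and 0.12 on day 14. After quantile normalization the mean difference of day 14 was -0.07, against 0.10 as deposited, and neither was called. As deposited, the hemisphere effects differed by 0.13, which was not called (limma, adjusted p = 0.52). Syk was higher in the injured hemisphere of all 3 animals of day 3 at 3 months and lower in all 3 animals of day 3 and of day 14 at 12 months. The difference of the effects was -0.27 for day 3 (limma, adjusted p = 0.52) and -0.23 against day 14 at 12 months, which was not tested. Groups of 3 were too small to test a single sample against the others.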

How the results depend on the processing

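Of 1421 values for the members under alternatives other than leaving out an array, 1372 kept their side of the threshold (26 of them, not called, changed sign), 18 lost a call, 28 gained one and 3 changed sign with a call in either fit; of 1218 values without 1 array these numbers were 1182 (60 changed sign), 29, 7 and 0. The 3 came from quantile normalization, 2 of them called before it and 1 only after it: Tyrobp in the mean of the hemisphere comparisons (-0.13, against 0.03), Syk contralaterally against sham on day 3 at 3 months (0.0070, against -0.33) and Tyrobp there on day 14 (0.011, against -0.20). The cause was not tested. All genes' median moved by at most 0.072 under quantile and 0.078 under median scaling. Quantile normalization called 7 members in that mean and 7 ipsilaterally against sham on day 3 at 12 months (4 each before), 1 contralaterally against sham on day 14 at 3 months (2 before), 0 between days contralaterally at 3 months (1), 2 between ages in sham (1), and for the hemisphere effect between days 0 at 3 months (1) and 1 at 12 months (0). Over all genes it called, in the same order, 4934 (5053 before), 4042 (4328), 2669 (4522), 1062 (1185), 1547 (1516), 505 (445) and 580 (623). Between hemispheres it also called Trem2 on day 14 at both ages, and Tyrobp and Fcer1g on day 3 at 12 months. Between days contralaterally at 3 months, no dim filter, median scaling, only the groups compared and only 1 age each called 0 and the trended robust variance 2. Contralaterally against sham at 3 months, only the groups compared called 1 on day 14, and only 1 age called 1 on each day. For the hemisphere effect between days, only the groups compared, only 1 age and the replicate block with a fixed animal called 0 at 3 months. At 12 months only 1 age called 1, Trem1, and the trended robust variance called 1, Trem2. That variance called 2 between ages in sham. Trem2 between days at 3 months had an adjusted p of 0.13 with only the groups compared and 0.076 with only 1 age. It was 0.053 with the fixed animal and 0.061 under quantile normalization. The replicate block changed no other member's call than this and the random block's call of Trem2 on day 14 at 12 months.

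Without 1 array, members called between hemispheres were 3 to 4 and 1 to 2 at 3 months (days 3 and 14), 4 and 2 to 3 at 12 months, and 4 in the mean. Against sham they were ipsilaterally 4 to 5 and 3 at 3 months and 4 and 3 to 4 at 12 months, and contralaterally 1 to 2 on each day at 3 months and 0 at 12 months. Between days they were ipsilaterally 3 to 4 and 1 to 2, contralaterally 0 to 2 and 0, and 1 to 2 and 0 for the hemisphere effect, at 3 and 12 months. They were 0 to 1 between ages in sham and 0 for the hemisphere effect between ages. Over all genes, counts moved by over 1.5 times as follows. Without 1 array they were 848 to 1227 between ages in sham (1516 with all), 61 to 207 contralaterally against sham on day 3 (150) and 0 to 1 on day 14 (1) at 12 months, 559 to 1129 (1185) and 58 to 131 (124) between days contralaterally at 3 and 12 months, 255 to 568 (445) and 412 to 649 (623) for the hemisphere effect between days, and 87 to 261 (184) and 1 to 8 (1) for it between ages on days 3 and 14; the lowest came without 12-month sham replicate 2, contralateral replicate 3 of day 3 at 12 months (61 and 58), contralateral replicate 2 of day 3 (559 at 3 months, 412 and 87 at 12 months) and ipsilateral replicate 1 of day 14 at 3 months (255), and the 8 without contralateral replicate 2 of day 14 at 3 months. Quantile normalization gave 2669 against 4522 contralaterally against sham on day 14 at 3 months, and 106 against 184 for the hemisphere effect between ages on day 3. Only the groups compared gave 1412 against 2365 between hemispheres on day 14 at 3 months, 97 against 1185 between days contralaterally at 3 months (503 with 1 age), and 141 against 445 for the hemisphere effect between days at 3 months (232 with 1 age). Counts of 0 to 2 stood against 1 contralaterally against sham on day 14 at 12 months, and 2 against 1 for the hemisphere effect between ages on day 14. Of 1188 such values for named genes of the lists, 1132 kept their call and 56 lost it, and without 1 array 763 of 882 kept it.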
